A study of Mus musculus with 7 samples.

Results

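The cell cycle and mitosis genes described here are 131 of the 14641 genes counted in hearts of non-transgenic (NTG) and Nrf2 transgenic (mNrf2-TG) mice. They were chosen by symbol alone: A, B, D and E cyclins (Ccn), cyclin-dependent kinases (Cdk) and their inhibitors (Cdkn), the Mcm, Cdc, Bub, Aurk, Cenp and E2f families, Plk1 to Plk4, and the kinesins Kif2c, Kif4, Kif11, Kif15, Kif18, Kif20, Kif22 and Kif23. All 131 are protein-coding and all 131 entered the test. By role, 17 act in G1 or at the G1/S transition, 9 in S phase, 45 in G2/M or mitosis, and 7 are CDK inhibitors. The remaining 53 match the names of these families and were assigned to none of these groups. Examples are the partners of the small GTPase Cdc42, the CDKs that phosphorylate RNA polymerase II, and 3 centriole genes, among them Plk4.

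RNA came from whole heart lysates of male C57BL/6J mice, 4 NTG and 3 mNrf2-TG, with 1 library per mouse. The mNrf2-TG mice carry a transgene of full-length mouse Nrf2 that the αMHC promoter drives in cardiomyocytes, and the NTG mice lack the transgene and received no other treatment in the labels. The labels put the mNrf2-TG mice at 6 months, give no age for the NTG mice, and the design text puts both groups at 7 to 8 months. The comparison asks how cardiac expression of Nrf2, the transcription factor of the antioxidant response, went with the RNA levels of the cell cycle machinery.

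Progress through the cell cycle rests on waves of transcription. D and E cyclins with their kinases inactivate the Rb proteins in G1 and free the E2F factors, which switch on the replication genes, and a later wave driven through CCAAT and cell cycle homology (CHR) promoter elements makes the cyclins, kinases and kinesins of mitosis. Adult cardiomyocytes rarely divide, so in a whole heart the RNA of mitotic genes is scarce and much of it can come from other dividing cells, and CDK inhibitors such as p21 (Cdkn1a) are expressed in the quiescent muscle.

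Between 6534684 and 8405857 reads per library fell on the listed genes. Nfe2l2, the gene of Nrf2, was higher in all 3 mNrf2-TG libraries (Log2FC 3.36, adjusted p = 2.96e-06, edgeR's quasi-likelihood test), transgene reads included. Cardiomyocyte markers were abundant in all 7 libraries, with summed normalized counts from 635380 to 677220 (NTG) and from 541000 to 567290 (mNrf2-TG). Library NTG 3 stood apart from the other NTG libraries in Acta2, a smooth muscle marker, at 7949 normalized counts against 1027 to 1886. The mNrf2-TG libraries 17 to 19 had 9355, 8268 and 5471, so NTG 3 lay inside the mNrf2-TG range. Tagln, another marker of that list, lay in NTG 3 within the range of the other NTG libraries. In bulk tissue, fewer cells of a type and less RNA per cell cannot be told apart.

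Promoter sequences show which members carry the letters of the late wave. RefSeq start sites (GRCm38.p6) gave 134 windows for 114 members, each from 250 bases before to 50 after a start. CCAAT, on either strand, stood in 75.6% of the 45 windows of G2/M and mitosis members, 70.0% of the 10 of S members, 53.3% of the 15 of G1 and G1/S members, 32.7% of the 55 of members outside the phases and 37.4% of all 32851 promoters of the table. TTTGAA, the core of the CHR, stood in 48.9% of the G2/M and mitosis windows, in 40.0% of the S windows, in 3 of the 15 G1 and G1/S windows, in 18.2% of those outside the phases and in 17.9% of all promoters. Both motifs shared a window in 42.2% of the G2/M and mitosis windows and in 6.95% of all promoters. All 7 windows of the mitotic cyclins, kinases and phosphatases held CCAAT and 5 held TTTGAA. A search chosen after these windows were seen found that 4 of the 7 (those of Ccnb1, Ccnb2, Cdk1 and Aurka) hold 2 CCAAT motifs in the same orientation with starts 31 to 33 bases apart, against 0.794% of all promoters. The stretches from 100 bases before to 50 after the start are printed for these 4, for Plk1 and Bub1b, which were called higher in mNrf2-TG, and for Cenpf, which has the same motifs but a lower mean count in mNrf2-TG. Capitals mark CCAAT and TTTGAA or their reverse complements, and each stretch is written in the direction of its gene.
Ccnb1 (chr13:100786437-100786586, minus strand): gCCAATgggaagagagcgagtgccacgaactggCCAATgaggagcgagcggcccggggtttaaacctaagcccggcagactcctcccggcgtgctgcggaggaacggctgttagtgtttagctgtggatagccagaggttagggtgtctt
Ccnb2 (chr9:70421505-70421654, minus strand): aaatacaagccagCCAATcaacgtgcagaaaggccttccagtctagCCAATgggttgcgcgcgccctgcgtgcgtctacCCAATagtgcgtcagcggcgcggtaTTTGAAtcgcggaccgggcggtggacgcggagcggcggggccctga
Cdk1 (chr10:69352863-69353012, minus strand): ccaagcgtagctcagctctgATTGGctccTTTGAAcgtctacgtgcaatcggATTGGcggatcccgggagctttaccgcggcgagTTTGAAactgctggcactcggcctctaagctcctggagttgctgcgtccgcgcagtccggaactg
Aurka (chr2:172370521-172370670, minus strand): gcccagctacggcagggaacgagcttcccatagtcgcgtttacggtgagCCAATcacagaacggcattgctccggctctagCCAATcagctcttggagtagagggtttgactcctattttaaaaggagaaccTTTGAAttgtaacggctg
Plk1 (chr7:122159335-122159484, plus strand): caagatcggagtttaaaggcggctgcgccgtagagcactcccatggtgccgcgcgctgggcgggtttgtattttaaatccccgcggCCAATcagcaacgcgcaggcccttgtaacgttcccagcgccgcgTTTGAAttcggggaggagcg
Bub1b (chr2:118598111-118598260, plus strand): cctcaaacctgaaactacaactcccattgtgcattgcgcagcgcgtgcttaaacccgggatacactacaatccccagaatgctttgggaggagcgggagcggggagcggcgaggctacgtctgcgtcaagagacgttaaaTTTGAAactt
Cenpf (chr1:189688037-189688186, minus strand): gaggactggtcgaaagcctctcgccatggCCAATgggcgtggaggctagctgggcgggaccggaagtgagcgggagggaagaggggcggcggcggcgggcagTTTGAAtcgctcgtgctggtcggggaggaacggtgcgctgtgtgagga
A match is a description of the letters and not a mapped binding site. Ccnb1 has CCAAT but no exact TTTGAA in this window and had the second largest Log2FC of all members, from few reads. Cenpf holds CCAAT and TTTGAA, had a lower mean count in mNrf2-TG and was not called. Only exact letters were searched, and a link between the motifs and the RNA difference was not tested.

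At an adjusted p under 0.05 the test across all 14637 genes called 20 of the 131 members (15.3%), close to the 17.2% called among all genes tested. Of these, 11 were higher in mNrf2-TG (8.4% of the members, against 8.48% of all genes) and 9 were lower (6.87% against 8.73%). Their median Log2FC was 0.10, and that of all genes was 0.00. The 7 libraries did not overlap between the groups for 30 members that were higher in mNrf2-TG (22.9%, against 15.0% of all genes) and for 14 that were lower (10.7%, against 14.7%). Many of the 30 had few reads, with a mean count under 10 for 10 of them and of 10 to 30 for 7. Of the 30 members with a mean count under 10, 25 had a positive Log2FC and the median was 0.78, while the median over the 2568 genes of that range was 0.11. Among the 57 members with a mean count of 100 or more the median was -0.12, with 3 called higher and 8 lower.

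The phases differed in their medians. The 17 members of G1 and G1/S had a median Log2FC of -0.08 with 0 called, and DESeq2 called 0. An unadjusted p under 0.05 was found for 5 of them and for 4708 of all 14637 genes tested. The 9 members of S phase had a median of 0.15 with 1 higher, and DESeq2 called 0. The 45 of G2/M and mitosis had a median of 0.52 with 4 higher and 1 lower, and DESeq2 called 2. These calls are 11.1% of the 45, below the 17.2% of all genes. Of the 45, 22 had a mean count under 10, a range in which 3.5% of all genes were called. Of those 45, 31 had a positive Log2FC. The 7 inhibitors had a median of 0.02 with 1 lower, and the 53 members outside the phases a median of 0.04 with 6 higher and 7 lower. Leaving out each library in turn kept the G2/M median between 0.17 and 0.68 and the G1 median between -0.15 and 0.025. The value of 0.17 came without mNrf2-TG 18, and the G1 median was positive without NTG 1. Keeping genes that reach 10 counts in each library of either group left 25 of the 45 G2/M members with a median of 0.14. These medians describe the members and carry no test.

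**Figure D1:**
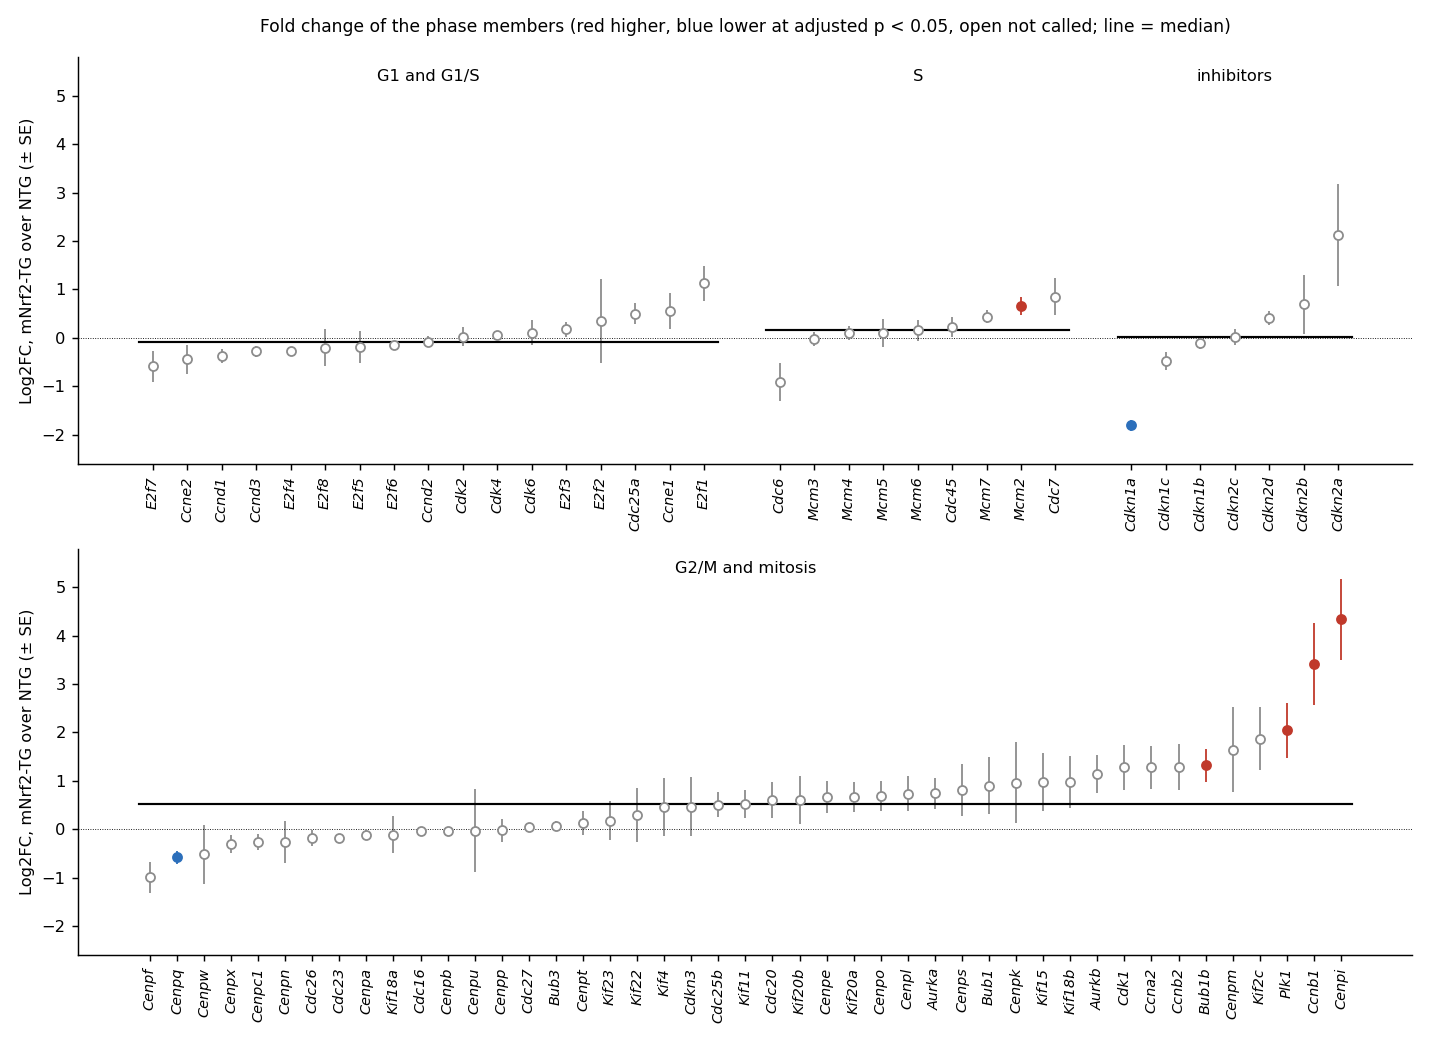
Log2FC (mNrf2-TG over NTG, y axis) with its standard error for the 78 members assigned to a phase or to the inhibitors, sorted within each list; filled red points were called higher, filled blue points lower, open points were not called, and black lines are the medians. Most of the G2/M and mitosis members lie above 0 with wide errors, and Cdkn1a lies far below the other inhibitors.

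The D cyclins carry growth signals to Cdk4 and Cdk6, and 0 of these 5 genes were called. Ccnd1 had 758, 915, 851 and 563 counts in NTG 1 to 4 and 573, 624 and 631 in mNrf2-TG 17 to 19. NTG 4 was far below the other NTG libraries and below all 3 mNrf2-TG libraries, which in turn lay below the other 3 NTG libraries. Its Log2FC was -0.38 (SE 0.14, adjusted p = 0.0932, edgeR), and without NTG 4 it was -0.51 with an adjusted p of 0.00397. Ccnd2 counted 1120, 1166, 874 and 1003 against 881, 1059 and 1106 (Log2FC -0.08, adjusted p = 0.651), and Ccnd3 344, 383, 383 and 397 against 239, 353 and 370 (Log2FC -0.28, adjusted p = 0.111). The groups overlapped in both after normalization. Cdk4 and Cdk6 had Log2FC of 0.06 and 0.11, and the 5 genes of this group had summed normalized counts from 2381 to 2973 (NTG) and from 2262 to 2442 (mNrf2-TG).

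The E cyclins, which start replication with Cdk2, were low in reads and were not called. Ccne1 counted 7, 15, 9 and 6 in NTG and 11, 10 and 21 in mNrf2-TG (Log2FC 0.55, adjusted p = 0.346), Ccne2 went the other way with 18, 17, 19 and 16 against 9, 11 and 20 (Log2FC -0.44, adjusted p = 0.347), and Cdk2 had a Log2FC of 0.02. In all 3 the groups overlapped after normalization. Among the 8 E2F factors, E2f1, an activator of replication genes, counted 7, 8, 7 and 6 in NTG and 8, 19 and 21 in mNrf2-TG. After normalization its groups did not overlap, at 7.11 ± 0.854 (SD, n = 4) against 15.5 ± 5.94 (SD, n = 3), and the Log2FC of 1.13 had an adjusted p of 0.058 (edgeR). Without mNrf2-TG 17 that adjusted p was 0.0315. E2f4, a repressor in resting cells that is named here after its values were seen, counted 233, 298, 263 and 315 against 214, 234 and 256 (Log2FC -0.28, adjusted p = 0.0554), with no overlap after normalization. The other 6 E2F members lay between -0.59 and 0.35 on the Log2FC scale.

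The member with the smallest adjusted p was Cdkn1a, which encodes p21, the CDK inhibitor induced by p53. Cdkn1a (Entrez gene 12575, chr17:29090976-29100727, GRCm38, plus strand) counted 398, 536, 558 and 613 in NTG 1 to 4 and 138, 166 and 156 in mNrf2-TG 17 to 19. Every mNrf2-TG library lay below every NTG library, and the mNrf2-TG values were close to each other. The normalized counts were 531 ± 73.1 (SD, n = 4) and 151 ± 11.2 (SD, n = 3), a ratio of 0.285. The Log2FC was -1.81 (SE 0.12, adjusted p = 1.74e-05, edgeR's quasi-likelihood test), it stayed between -1.87 and -1.74 with each library left out, and the gene was called under all 14 alternatives. On the RPKM scale (TMM-scaled reads relative to exon length) it was the most abundant inhibitor in NTG (19.9), and in mNrf2-TG (5.65) it was below Cdkn1b (8.84) and Cdkn2d (9.11).

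The other 6 inhibitors were not called. Of all 7, 3 had an unadjusted p under 0.05, Cdkn1a included, and 1 was higher without overlap. Cdkn1b (p27) counted 284, 366, 271 and 381 against 269, 298 and 359 (Log2FC -0.12, adjusted p = 0.496). Cdkn1c (p57) counted 127, 172, 179 and 201 against 114, 91 and 170, where mNrf2-TG 19 lay among the NTG libraries (Log2FC -0.49, adjusted p = 0.0961, and 0.0421 without mNrf2-TG 19). Cdkn2c (p18) had a Log2FC of 0.02, and Cdkn2a, Cdkn2b and Cdkn2d had positive Log2FC of up to 2.12 and were not called. Cdkn2a had the lowest level of the inhibitors in both groups, at an RPKM of 0.058 (NTG) and 0.296 (mNrf2-TG). The summed level of the 7 inhibitors ran from 1082 to 1339 normalized counts (NTG) and from 699 to 829 (mNrf2-TG), and Cdkn1a made up most of that gap. Of 19 further genes of the Rb and p53 pathways, 2 were called higher and 0 lower (4 and 0 at an unadjusted p under 0.05, and 3 and 0 by DESeq2). They were Ccng2, an atypical cyclin of quiescent cells (Log2FC 0.67, adjusted p = 0.00613), and Btg1, an antiproliferative factor (Log2FC 0.89, adjusted p = 0.0141, and up to 0.0547 without mNrf2-TG 17 or mNrf2-TG 18). Trp53 (Log2FC -0.07, adjusted p = 0.757) and Mdm2 (Log2FC -0.06, adjusted p = 0.694), another p53 target, were not called.

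Of the 3 inhibitor windows with TGACNNNGC, the core letters of the antioxidant response element that Nrf2 and small Maf proteins bind, 1 belongs to Cdkn1a. RefSeq gives Cdkn1a 2 start sites in the table. The window of the upstream start has no match, and that of the downstream start has 1, on the opposite strand, whose nearest base lies 28 bases into the transcript. It is shown in capitals (the reverse complement of those letters) because Nrf2 was the transgene.
Cdkn1a (chr17:29093776-29093818, plus strand): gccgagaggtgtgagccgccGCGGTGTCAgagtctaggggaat
The same letters stood in 12.4% of all promoters and in 11.9% of the members' windows, so their presence is common in windows of this length.

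**Figure D2:**
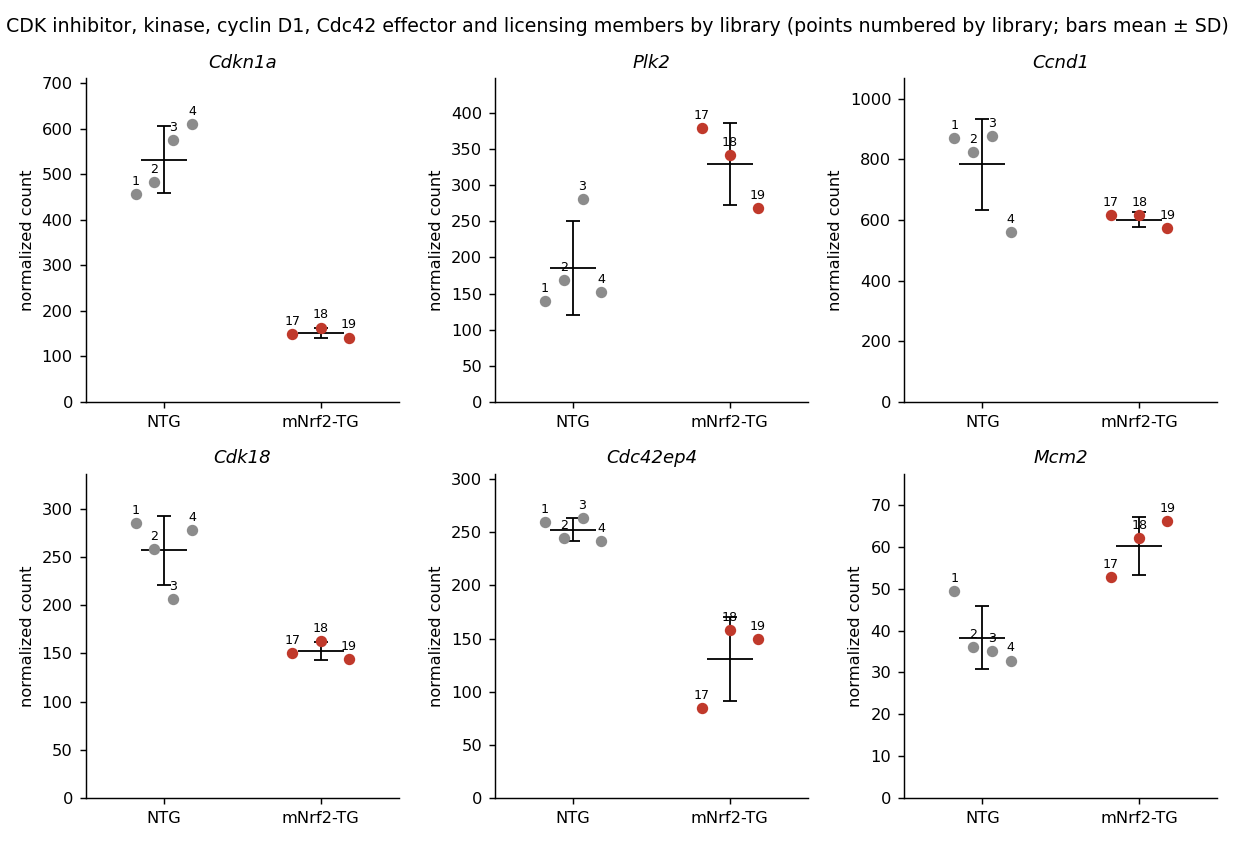
Normalized counts (y axis, TMM scale) of Cdkn1a, Plk2, Ccnd1, Cdk18, Cdc42ep4 and Mcm2 in each library, numbered as in the labels; crossbars and whiskers are the mean and SD of 4 NTG (grey) and 3 mNrf2-TG (red) libraries. The groups are separate for Cdkn1a, Cdk18, Cdc42ep4 and Mcm2, NTG 3 reaches the mNrf2-TG range of Plk2, and NTG 4 lies below all 3 mNrf2-TG libraries for Ccnd1.

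The replication licensing genes showed 1 rise among 9. Mcm2, a subunit of the helicase loaded at origins, counted 43, 40, 34 and 33 in NTG and 49, 63 and 73 in mNrf2-TG. The groups did not overlap, with NTG 1 next to mNrf2-TG 17 after normalization (38.3 ± 7.51 against 60.4 ± 6.93, SD, n = 4 and 3). Its Log2FC was 0.66 (SE 0.19, adjusted p = 0.036, edgeR). The other 5 subunits of the same ring were not called: Mcm3, Mcm4, Mcm5 and Mcm6 had Log2FC of -0.03, 0.10, 0.10 and 0.15, and Mcm7 had 0.44 (adjusted p = 0.0545). Mcm7 counted 54, 74, 60 and 51 against 73, 87 and 89, without overlap after normalization, and was called with library totals as the scale and under both stricter filters on counts. Its exons overlap Cops6 and Ap4m1 on the opposite strand. The call of Mcm2 was kept without NTG 1 or NTG 3 and lost without any of the other 5 libraries, with an adjusted p of up to 0.121. Of 22 further genes of replication and nucleotide supply, 3 were called higher, namely Gins2 (Log2FC 1.96, adjusted p = 0.00383), Rrm2 (1.64, 0.0417) and Rpa2 (0.57, 0.0219), and 2 lower, Gmnn (-0.49, 0.0118) and Pole (-0.86, 0.0498). Gins2 and Gmnn were called in all 7 fits that left out a library. Rpa2 was not called without NTG 2, mNrf2-TG 18 or mNrf2-TG 19 (adjusted p up to 0.0792). Rrm2 was called only without NTG 3 or mNrf2-TG 17 (up to 0.174), and Pole only without NTG 4 (up to 0.143; 0.108 by DESeq2). The median Log2FC of all 22 was 0.16. Of all genes tested, 8.48% were called higher and 8.73% lower.

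E2F sites, searched as TTTGGCGC and TTTCCCGC on either strand, were found in 50.0% of the 10 windows of the licensing genes, against 33.3% of the G1 and G1/S windows, 13.3% of the G2/M windows and 1.56% of all promoters. Mcm6, whose RNA did not pass the test, and Mcm2, whose RNA did, are shown with the E2F site, CCAAT and TTTGAA in capitals.
Mcm6 (chr1:128359656-128359805, minus strand): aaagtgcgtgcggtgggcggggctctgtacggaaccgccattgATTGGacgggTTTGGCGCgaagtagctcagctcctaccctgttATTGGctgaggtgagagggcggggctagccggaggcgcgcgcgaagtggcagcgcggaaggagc
Mcm2 (chr6:88898731-88898880, minus strand): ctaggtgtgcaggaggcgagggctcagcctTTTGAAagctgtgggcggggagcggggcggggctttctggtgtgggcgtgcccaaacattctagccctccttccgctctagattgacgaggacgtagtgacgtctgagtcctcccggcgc
The Mcm6 stretch holds an E2F site beside a CCAAT in reverse orientation, and the Mcm2 window holds no match to these 2 forms of the E2F site.

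The mitotic cyclins, kinases and phosphatases were the most uniform group of members. All 9 (Ccna2, Ccnb1, Ccnb2, Cdk1, Plk1, Aurka, Aurkb, Cdc25b and Cdkn3) had a positive Log2FC, with a median of 1.28. The groups did not overlap for 6 of them, and 2 (22.2%) were called. Of all genes tested, 15.0% were higher without overlap and 17.2% were called. The called share was 3.5% of all genes with a mean count under 10 and 10.3% of those with 10 to 30. The 9 members are rare transcripts, 8 of them with a mean count under 30. Their level in NTG ran from an RPKM of 0.0149 for Ccnb1 to 1.02 for Cdc25b, far below the 22.1 of Ccnd1.

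Ccnb1, cyclin B1, counted 0, 1, 0 and 1 in NTG and 4, 12 and 4 in mNrf2-TG. All NTG libraries held at most 1 read and all mNrf2-TG libraries at least 4. The ratio of summed counts, scaled by the library sizes, was 13.0 with a 95% counting interval of 3.15 to 115, and the fitted Log2FC was 3.41 (SE 0.85, adjusted p = 0.0223, edgeR). The call was lost without NTG 1 or mNrf2-TG 18 (adjusted p up to 0.0891). Of the 50-base stretches of its exons, 23.4% also occur in another annotated gene, so its reads can be shared with near copies. Plk1, the Polo-like kinase of mitotic entry, counted 1, 1, 2 and 1 against 6, 7 and 4. Its ratio of summed counts was 4.41 (1.56 to 15.3) and its Log2FC 2.04 (adjusted p = 0.0336), a call kept without NTG 3 or mNrf2-TG 19 and lost without any of the other 5 libraries.

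Cdk1, the kinase that drives mitosis with the B cyclins, counted 8, 13, 15 and 3 in NTG and 19, 37 and 17 in mNrf2-TG. NTG 3 touched the mNrf2-TG range after normalization and mNrf2-TG 18 was the highest. Its Log2FC was 1.28 (SE 0.46, adjusted p = 0.0829) and the adjusted p without NTG 3 was 0.0422. Its partners had the same size of difference: Ccna2 counted 11, 10, 16 and 2 against 18, 29 and 27 (Log2FC 1.28, adjusted p = 0.078, and 0.0287 without NTG 3), and Ccnb2 counted 2, 7, 7 and 3 against 10, 18 and 8 (Log2FC 1.29, adjusted p = 0.0947). Neither overlapped between the groups after normalization, though for Ccnb2 NTG 3 and mNrf2-TG 19 were almost equal. The Aurora kinases of the spindle pole and the centromere followed, Aurka with 7, 8, 7 and 8 against 11, 17 and 11 (Log2FC 0.75, adjusted p = 0.141) and Aurkb with 3, 3, 5 and 4 against 8, 10 and 8 (Log2FC 1.14, adjusted p = 0.074). Both were separate between the groups by a few reads only.

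**Figure D3:**
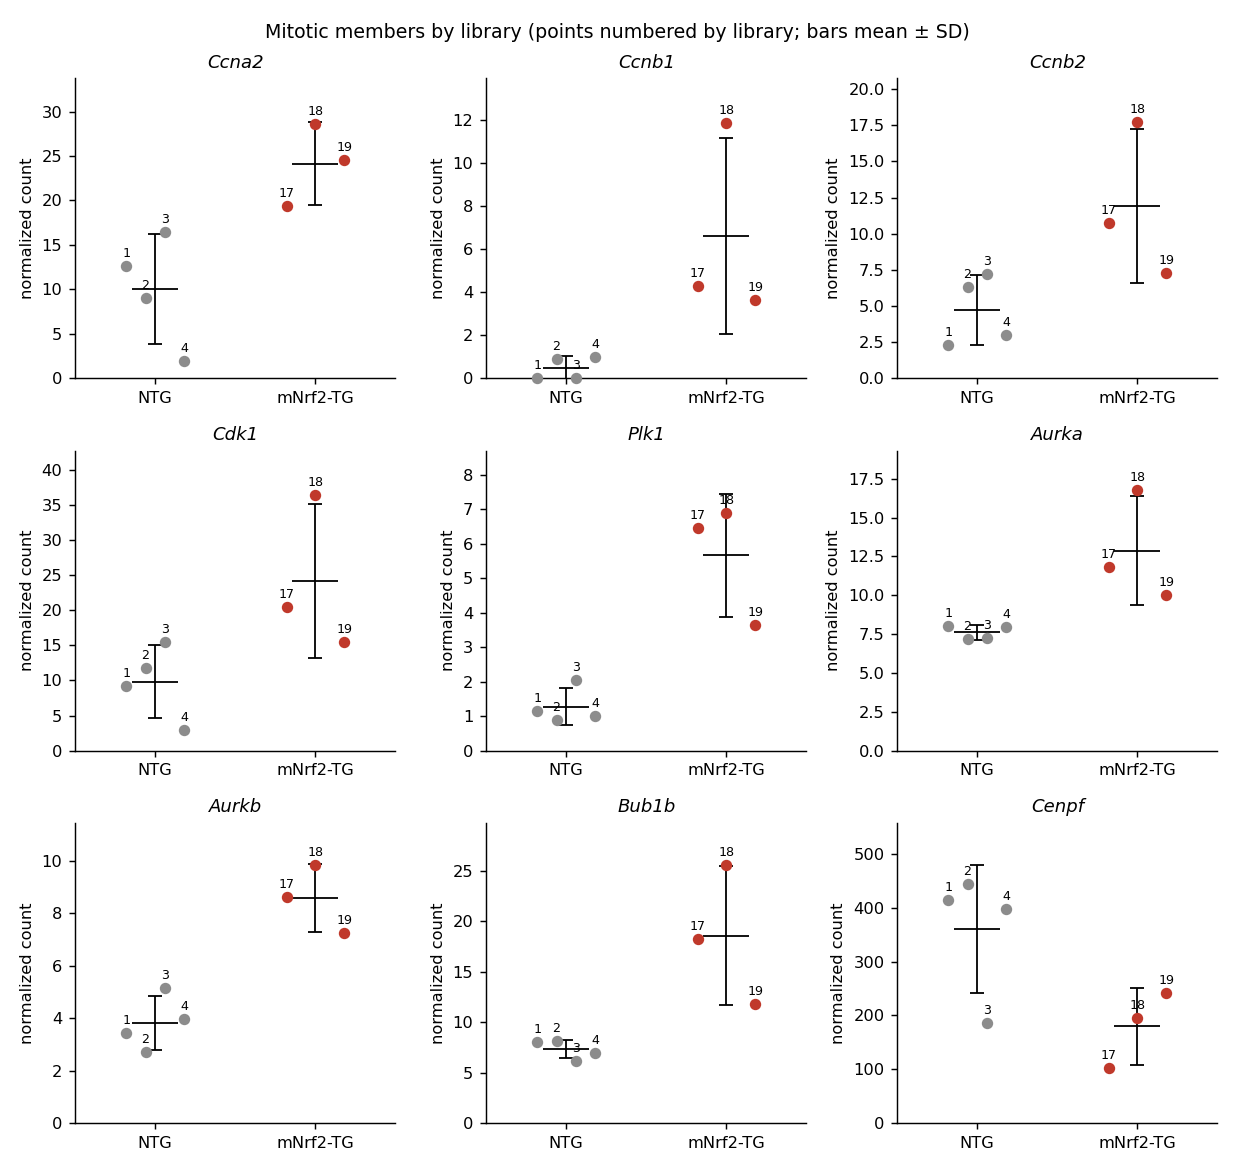
Normalized counts (y axis, TMM scale, starting at 0) of 9 mitotic members in each library, numbered as in the labels; crossbars and whiskers are the mean and SD of 4 NTG (grey) and 3 mNrf2-TG (red) libraries. Library mNrf2-TG 18 is the highest in 8 of the panels, and Cenpf runs the other way with NTG 3 inside the mNrf2-TG range.

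The 10 mitotic kinesins, the motors of spindle assembly and cytokinesis, leaned the same way with smaller differences. A positive Log2FC was found for 9 of 10, the median was 0.56 and 0 were called (1 had an unadjusted p under 0.05, and DESeq2 called 0). Kif11, the motor that separates the spindle poles, counted 12, 23, 18 and 19 against 20, 38 and 21 (Log2FC 0.52, adjusted p = 0.258), with overlap. Kif20a counted 14, 34, 21 and 13 against 24, 40 and 36 (Log2FC 0.67, adjusted p = 0.158), and its exons overlap those of Cdc23 on the opposite strand. Kif2c, named after its values were seen, had the largest Log2FC of the group (1.87, adjusted p = 0.0742) from 2, 2, 1 and 1 counts against 2, 10 and 6. TTTGAA stood in 8 of the 9 kinesin windows.

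The difference in these 2 groups was unequal among the mNrf2-TG mice. Library mNrf2-TG 18 was the highest of the 3 for 17 of the 19 genes, and mNrf2-TG 19 the lowest for 12. The cyclins, kinases and phosphatases summed to 69.0, 72.0, 84.6 and 53.8 normalized counts in NTG 1 to 4 and to 127, 194 and 98.1 in mNrf2-TG 17 to 19, and the kinesins to 79.3, 96.3, 96.9 and 92.6 against 99.0, 182 and 110. Both sums stayed above every NTG library without mNrf2-TG 18, the kinesins by a narrow margin. Of 33 further genes of mitosis and cytokinesis, 26 had a positive Log2FC and the median was 0.72. Their summed normalized counts overlapped, from 1812 to 2032 (NTG) and from 1529 to 2076 (mNrf2-TG). Pttg1, the most abundant of the 33, counted 764, 965, 932 and 1014 against 379, 427 and 1011 (Log2FC -0.67, adjusted p = 0.0903, edgeR). Of the 33, 7 were called higher and 0 lower (8.48% and 8.73% of all genes). At an unadjusted p under 0.05 there were 13 higher and 2 lower, and DESeq2 called 6 higher and 1 lower (Pttg1). The 7 were Top2a, Birc5, Spc25, Ube2c, Racgap1, Foxm1 and Cdca8, with Log2FC from 1.07 (Racgap1) to 1.79 (Cdca8). All 7 calls ended without mNrf2-TG 18. Top2a kept its call in the other 6 fits that left out a library, and Ube2c lost it also without mNrf2-TG 17. The others were called in 3 (Foxm1, Cdca8), 2 (Spc25, Racgap1) or 1 (Birc5) of the 7 fits: all 5 ended without NTG 2 or NTG 4, Birc5 and Spc25 without NTG 1, Birc5, Racgap1 and Foxm1 without mNrf2-TG 17, and Birc5, Spc25, Racgap1 and Cdca8 without mNrf2-TG 19, with adjusted p up to 0.153. DESeq2 did not call Birc5 or Racgap1 (adjusted p = 0.107 and 0.052). Foxm1 encodes a transcription factor of the late wave and counted 9, 5, 10 and 4 against 18, 25 and 15. The proliferation marker Mki67 counted 38, 36, 80 and 21 against 68, 123 and 90, so that NTG 3 lay among the mNrf2-TG libraries (Log2FC 1.04, adjusted p = 0.0799). Without NTG 3 its Log2FC was 1.52 with an adjusted p of 0.00369, and this was the only 1 of the 7 fits that called it. In the other fits that left out a library its Log2FC fell to 0.80 and its adjusted p reached 0.254. DESeq2 gave Mki67 an adjusted p of 0.0419 with all libraries.

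Markers of other cell types moved in the same libraries. Of all genes tested, 8.48% were called higher and 8.73% lower. Of 6 macrophage and leukocyte markers, 4 were called higher (Ptprc, Csf1r, Adgre1 and C1qa), and their summed normalized count ran from 851 to 1049 (NTG) and from 1433 to 2039 (mNrf2-TG), highest in mNrf2-TG 18. Of 6 fibroblast markers, 4 were called higher (Col1a1, Col1a2, Lum and Tcf21), with sums of 7645 to 9947 and 10744 to 11293, also highest in mNrf2-TG 18. Of 6 cardiomyocyte markers, 3 were called lower (Tnni3, Myl2 and Mb). Of 6 endothelial markers, Kdr was called higher and Pecam1 and Cdh5 lower, with sums of 6239 to 6840 and 5871 to 6133. Of 6 smooth muscle and pericyte markers, Rgs5 was called lower and 2 had a positive Log2FC. Their sums were 3753, 3778, 11113 and 4437 in NTG 1 to 4 and 11525, 10706 and 7754 in mNrf2-TG 17 to 19. The sums overlapped only through NTG 3. Acta2 had a Log2FC of 1.37 (adjusted p = 0.163, edgeR), and of 2.53 without NTG 3 (adjusted p = 0.000132). It was called in 1 of the 7 fits that left out a library, with an adjusted p of up to 0.333. The 4 lymphocyte markers found summed to 4.50 to 11.5 and 5.45 to 10.8, and the 4 erythroid markers to 2146 to 3383 and 1356 to 3241, with 0 called in either list by edgeR or DESeq2 and 0 at an unadjusted p under 0.05. The part of these cells in the mitotic result was not tested.

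**Figure D4:**
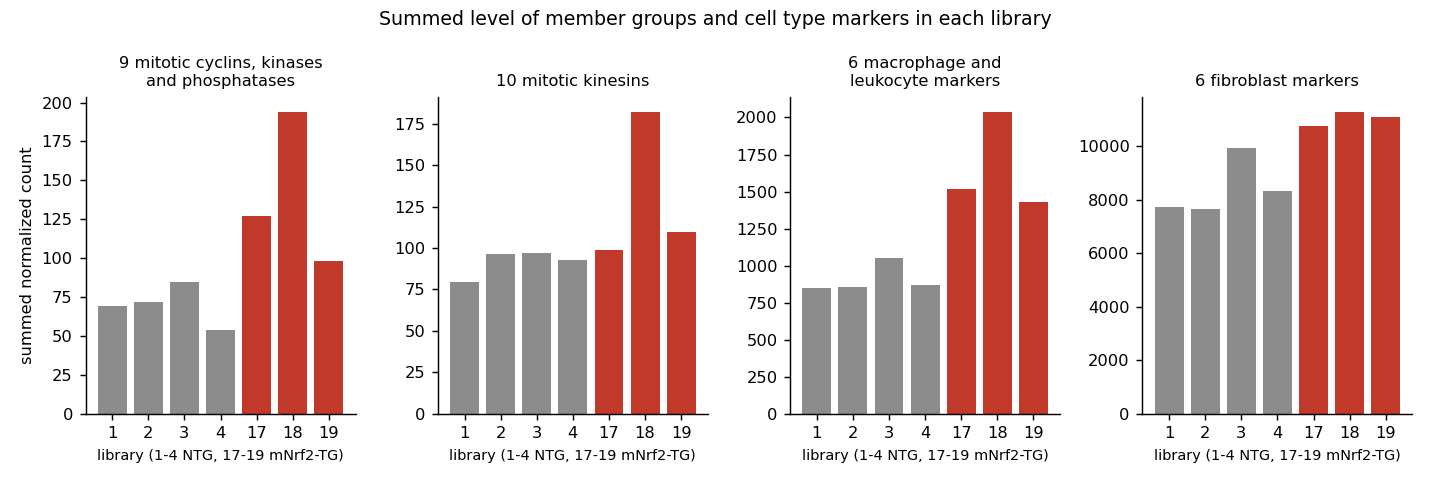
Summed normalized counts (y axes, each starting at 0) of the mitotic cyclins, kinases and phosphatases, the mitotic kinesins, the macrophage and leukocyte markers and the fibroblast markers in each library, NTG grey and mNrf2-TG red. In every panel mNrf2-TG 18 is the tallest bar (194, 182, 2039 and 11293), and in the fibroblast panel mNrf2-TG 19 is close to it (11089).

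The spindle checkpoint and the anaphase-promoting complex split by abundance. Bub1b, the checkpoint kinase that restrains the complex, counted 7, 9, 6 and 7 in NTG and 17, 26 and 13 in mNrf2-TG. The groups did not overlap (7.33 ± 0.920 against 18.6 ± 6.91, SD, n = 4 and 3), and the Log2FC was 1.32 (SE 0.35, adjusted p = 0.0277, edgeR). That call was kept without NTG 3 or mNrf2-TG 19 and lost without any of the other 5 libraries (adjusted p up to 0.111). Bub1 (2, 2, 6 and 7 against 3, 13 and 9) and the activator Cdc20 (6, 7, 14 and 7 against 11, 16 and 13) overlapped and had Log2FC of 0.90 and 0.60. The core subunits Cdc16, Cdc23, Cdc26 and Cdc27 and the checkpoint protein Bub3, which dividing and resting cells share, had Log2FC between -0.19 and 0.07.

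The 18 centromere and kinetochore members had a median Log2FC of -0.03 and went in both directions. Cenpi, a subunit of the constitutive centromere network that was named after its values were seen, counted 0, 0, 0 and 1 in NTG and 4, 11 and 8 in mNrf2-TG. A ratio of summed counts of 29.9 had a 95% counting interval of 4.85 to 1230, and the Log2FC was 4.34 (SE 0.84, adjusted p = 0.00785, edgeR). It was called in all 7 fits that left out a library. Cenpq, of the same network, was lower, with 91, 95, 91 and 96 counts against 58, 58 and 78 and no overlap (Log2FC -0.57, SE 0.13, adjusted p = 0.0175). It was not called without NTG 1, mNrf2-TG 17 or mNrf2-TG 18 (adjusted p up to 0.0667), and 95 bases of its exons overlap Mut on the opposite strand. Cenpa, the histone variant that marks the centromere, had a Log2FC of -0.12, and Cenpe, a kinetochore motor, had 0.67 (7, 6, 7 and 10 against 11, 14 and 12, adjusted p = 0.193).

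Cenpf, a large protein of the outer kinetochore, ran against the mitotic genes. It counted 361, 494, 180 and 400 in NTG and 95, 198 and 267 in mNrf2-TG. NTG 3 lay in the mNrf2-TG range and the other 3 NTG libraries lay above all mNrf2-TG libraries. The Log2FC was -0.996 (SE 0.32, adjusted p = 0.0598, edgeR), and without NTG 3 it was -1.27 with an adjusted p of 0.00454. Its level in NTG, an RPKM of 3.11, was above those of all mitotic cyclins, kinases and kinesins in the list, whose highest was 1.02.

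Among the Polo-like kinases outside the mitotic list, Plk2 and Plk3 respond to stress and Plk4 builds centrioles. Plk2 counted 121, 187, 272 and 153 in NTG and 352, 347 and 295 in mNrf2-TG, and after normalization NTG 3 lay above mNrf2-TG 19. The Log2FC was 0.83 (SE 0.22, adjusted p = 0.0299, edgeR), and without NTG 3 it was 1.10 with an adjusted p of 0.000578. Leaving out NTG 1, NTG 2, NTG 4, mNrf2-TG 17 or mNrf2-TG 18 ended the call, with an adjusted p of up to 0.112. Plk3 had a Log2FC of -0.13. Plk4 counted 16, 23, 16 and 15 against 26, 35 and 35 without overlap (Log2FC 0.83, SE 0.22, adjusted p = 0.0284), a call lost without NTG 1, NTG 4 or any 1 of the 3 mNrf2-TG libraries.

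The 53 members outside the phases held 13 of the 20 calls, those of Plk2 and Plk4 included. This is 24.5% of the 53, against 17.2% of all genes and 24.0% of all genes with a mean count of 100 or more. Their median count was 200, against 10.6 for the G2/M members. Cdk18, a kinase of the PCTAIRE family, counted 248, 287, 200 and 279 in NTG and 140, 165 and 159 in mNrf2-TG. All mNrf2-TG libraries were lower, and the Log2FC was -0.75 (SE 0.12, adjusted p = 0.00405, edgeR). Its relatives Cdk16 and Cdk17 were not called (Log2FC -0.20 and -0.10; both are named after their values were seen). Cdc42ep4, an effector of Cdc42 that organizes septins, counted 226, 272, 255 and 243 against 79, 160 and 165. The groups were separate with mNrf2-TG 17 the lowest, and the Log2FC was -0.94 (SE 0.18, adjusted p = 0.00714). Cdc42 itself had a Log2FC of 0.04 (adjusted p = 0.695).

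Calls in both directions were made among the Cdc42 partners, 4 of 11 (36.4%). Of all genes 17.2% were called, and of those with a mean count of 100 or more 24.0%. Beside Cdc42ep4, the kinase Cdc42bpb was lower (718, 953, 864 and 772 against 636, 652 and 764, Log2FC -0.31, adjusted p = 0.0195), while the effectors Cdc42ep3 (198, 275, 232 and 219 against 324, 267 and 343, Log2FC 0.40, adjusted p = 0.0291) and Cdc42se1 (196, 245, 210 and 220 against 259, 289 and 281, Log2FC 0.31, adjusted p = 0.0272) were higher. After normalization the groups were separate in all 3. The 7 transcription CDKs went in both directions, with a median Log2FC of 0.18 and 4 above 0. Without overlap, 3 were higher and 2 lower, and over all genes 15.0% were higher and 14.7% lower. The 3 higher ones, Cdk8, Cdk9 and Cdk19, named after their values were seen, were not called (Log2FC 0.33, 0.28 and 0.30, adjusted p from 0.0766 to 0.133), and Cdk8 was called without NTG 3 (adjusted p = 0.0464). The 2 lower ones were called: Cdk11b, of splicing and transcription, counted 452, 616, 478 and 537 against 389, 410 and 445 (Log2FC -0.36, adjusted p = 0.0089), and Cdk13, which phosphorylates RNA polymerase II, counted 342, 426, 389 and 410 against 294, 338 and 353 (Log2FC -0.29, adjusted p = 0.0199). Cdc73, a subunit of the Paf1 complex that travels with the same polymerase, had a Log2FC of -0.31 (adjusted p = 0.0441), and its exons overlap B3galt2 on the opposite strand.

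The remaining calls lie where exons of another gene overlap or in less studied genes. Mcm9, a helicase of DNA repair (11, 22, 23 and 23 against 28, 42 and 41, Log2FC 0.87, adjusted p = 0.0389), shares 1748 exon bases with Asf1a on the opposite strand, and Cdk10 (49, 75, 82 and 61 against 92, 102 and 101, Log2FC 0.52, adjusted p = 0.0412) shares 417 with Spata2l. Cdc42se1 shares 38 with Mllt11. Since strand use in counting was not stated, reads of these neighbours cannot be told apart from theirs. Cdkn2aipnl, a homologue of a binding partner of the Cdkn2a product, was lower (115, 169, 123 and 128 against 91, 100 and 118, Log2FC -0.41, adjusted p = 0.0325).

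Most of the calls rested on the full set of libraries. With 1 library left out, between 6 and 25 members were called: 6 without NTG 1, 10 without NTG 2, 25 without NTG 3, 12 without NTG 4, 8 without mNrf2-TG 17 or mNrf2-TG 18, and 14 without mNrf2-TG 19. Over all genes the calls in these fits ran from 1373 to 2950, against 2519 with all libraries. Only Cdkn1a, Cdc42ep4, Cdk18, Cdk11b and Cenpi were called in all 7 of these fits, and 12 of the 20 called members were called in fewer than 4. Outside the genes treated above, the number of these fits that called each gene was 3 for Cdc42ep3 and Cdc42bpb, 4 for Cdk13, 2 for Cdc42se1, Mcm9 and Cdkn2aipnl, and 1 for Cdk10 and Cdc73, and these 8 calls all ended without NTG 1 or without mNrf2-TG 17. They also ended without NTG 2 for Cdc42bpb, Cdc42se1, Mcm9, Cdkn2aipnl, Cdk10 and Cdc73, without NTG 3 for Cdc73, and without NTG 4 for Cdc42ep3, Cdc42se1, Cdk10 and Cdc73. Loss of mNrf2-TG 18 ended those of Cdc42bpb, Cdc42se1, Mcm9, Cdkn2aipnl and Cdk10, and loss of mNrf2-TG 19 those of Cdc42ep3, Cdk13, Mcm9, Cdkn2aipnl, Cdk10 and Cdc73. Without NTG 3, 19 of the 20 members stayed called and 6 were added (Ccna2, Cdk1, Cenpf, Cdc5l, Cdk5rap1 and Cdk8). No other fit that left out a library called any of these 6. Likewise, Ccnd1 was added only without NTG 4, E2f1 and Kif2c only without mNrf2-TG 17, and Cdc25b and Cdkn1c only without mNrf2-TG 19. DESeq2's Wald test called 10 members, 3 higher (Bub1b, Plk2 and Cdc42ep3) and 7 lower, and gave no adjusted p for Ccnb1, Plk1 and Cenpi because of their low counts. The same 3 genes did not pass either stricter filter on counts, under which Mcm7 and E2f4 were called.

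**Figure D5:**
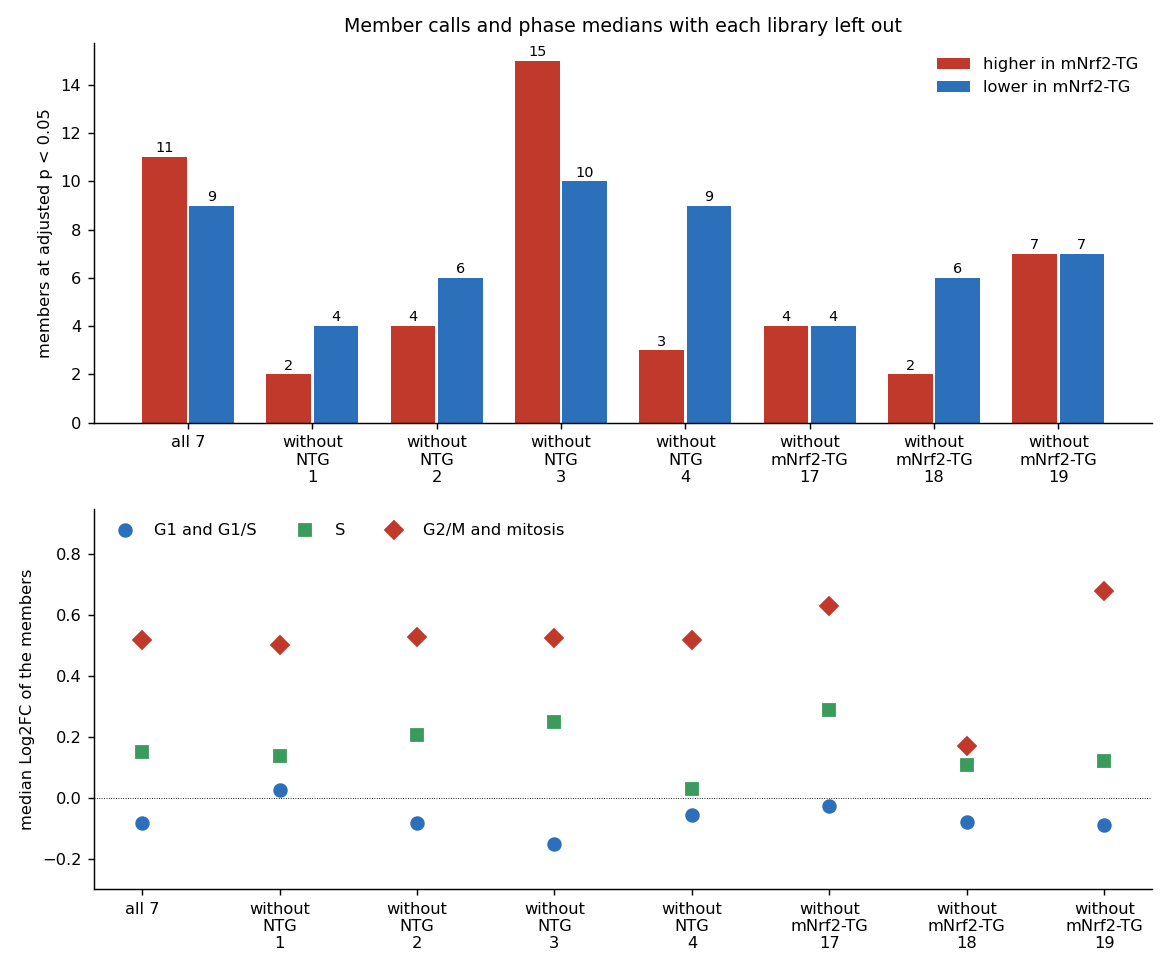
Upper panel, number of members at an adjusted p under 0.05 (y axis) that were higher (red) or lower (blue) in mNrf2-TG with all 7 libraries and with each left out; lower panel, median Log2FC (y axis) of the G1 and G1/S, S, and G2/M and mitosis members in the same fits. Calls range from 2 to 15 higher and 4 to 10 lower, and the G2/M median is above the other 2 in every fit, with the smallest gap without mNrf2-TG 18.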

How the data were processed

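RNA of 4 NTG and 3 mNrf2-TG hearts was sequenced as stranded libraries of poly(A) RNA. The authors aligned the reads with Novoalign 2.08.01 (per the submitters' processing notes, which name GRCm38) and deposited counts per gene without normalization. The program that counted the reads, and whether it used strand, are not given in the sources used here. The authors' DESeq2 comparison was used only for gene symbols and for its signal column, the mean of normalized counts, which the counts matched within 0.3082%; its fold changes and p-values were not used, and neither were the deposited log2 (rlog) values. The 14665 entries gave 14641 genes.

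The counts were compared with edgeR 4.0.16 (TMM, quasi-likelihood test, two-sided, no covariates) over 14637 genes with a summed count above 1, with Benjamini-Hochberg adjustment over all of them. A gene was called at an adjusted p under 0.05. Log2FC is mNrf2-TG over NTG, and its standard error is the absolute Log2FC over the square root of F. Normalized counts are TMM counts at the mean library size, RPKM relates them to GENCODE exon length, and overlap between groups was judged on them. Intervals cover counting error only. Positions, exon lengths and overlaps came from GENCODE M21, promoters from RefSeq. The fit was tested on simulated data. DESeq2 1.42.0, limma 3.58.1 and leaving out each library were alternatives. Nothing beyond 1 library per mouse enters the spread. Members and lists were chosen with earlier results of these data known. The genes named are the called members that reach 10 counts in each library of the higher group, at most 12 each way, a set of cyclins, kinases, inhibitors and Mcm subunits fixed by name, called genes of the pathway lists, Mki67 and Top2a; others are said to be named after their values were seen.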

Additional observations from a re-analysis of the deposited data

Results flagged for a closer look

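In 56 sets of 4 NTG values (named members with at least 10 counts in some NTG library, and the summed groups of members) 5 had an NTG library far from the other 3 by Dixon's test, and chance gives about 1 in 20. Cdc73 was lowest in NTG 1, at 263 normalized counts against 289 to 293 in the others. Ccnd1 was lowest in NTG 4, at 561 against 824 to 878. Ccnd3 was lowest in NTG 2, at 345 against 395.0 to 395.5. Cdc20 was highest in NTG 3, at 14.4 against 6.30 to 6.97. The summed stress-induced Polo-like kinases (Plk2 and Plk3) were highest in NTG 3, at 309 against 157 to 182.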

How the results depend on the processing

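The 20 calls among the members (11 higher, 9 lower) stayed within 1.5 times under DESeq2 size factors, library totals, limma-voom, 2 stricter filters and no filter. DESeq2's Wald test called 10 members, 3 of them higher. Leaving out each library gave 6 to 25 calls, 2 to 15 higher and 4 to 10 lower. The median Log2FC of the G1 and G1/S members was -0.15 under filterByExpr and -0.15 to 0.025 with a library left out, where it was positive only without NTG 1. That of the S members lay between 0.028 and 0.29 with a library left out. That of the G2/M and mitosis members was 0.45 under limma-voom, 0.14 under filterByExpr, 0.14 where 10 counts were required in each library of either group, which dropped 20 of the 45 genes, and 0.17 to 0.68 with a library left out, lowest without mNrf2-TG 18. Over 49 named members and their alternatives, 583 of 672 values kept their side of the threshold, 80 lost the call and 9 gained it. Of these values, 0 changed sign where either fit called the gene. Changes of sign in genes called in neither fit were not counted. Scaling by library totals moved the median of all genes by 0.03 and the share of called members that were higher from 55.0% to 63.2%. The cause of these changes was not tested, beyond the lower number of genes or samples in some. No paired analysis was possible because the groups share no replicate numbers.

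At these totals 30 of the members had a mean count under 10, and 14 members had no adjusted p in DESeq2.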
